A study of Homo sapiens with 8 samples.

Results

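The genes CLCA2, PDZK1IP1, GLUL and TCN1 are 4 of the 13771 genes measured by RNA-seq in 2 breast epithelial cell lines with and without overexpression of the long noncoding RNA HOTAIR. They were chosen by their symbols, as genes that are high in MCF10A and rise with HOTAIR in DCIS.COM in these same libraries. The difference between the lines and the difference with HOTAIR in DCIS.COM are therefore given as descriptions, with no test, and the comparison of HOTAIR with empty vector in MCF10A is the tested one. The rise with HOTAIR in DCIS.COM was seen for all 4 genes. The higher level in MCF10A was seen for CLCA2, PDZK1IP1 and GLUL, whereas TCN1 went against that description and was higher in DCIS.COM under both vectors.

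MCF10A is a non-tumorigenic breast epithelial line, and DCIS.COM is a related line used as a model of ductal carcinoma in situ. Each was stably transduced with pCDH-HOTAIR or with the pCDH-empty control, and all cells were selected with puromycin. The 4 groups held 2 libraries each, which gave 8 libraries of 19306864 to 34884841 reads. The MCF10A medium contained epidermal growth factor, hydrocortisone, insulin and cholera toxin beside horse serum, whereas the DCIS.COM medium is described with horse serum alone, so that line and medium cannot be told apart. The labels do not say that replicates came from separate cultures, and the p-values then measure the spread between these libraries, which may be technical. HOTAIR itself had 40 to 140 reads in the empty-vector libraries and 4614 to 7166 reads in the pCDH-HOTAIR libraries. The library DCIS.COM pCDH-empty 1 stood apart, with 18.9% of its reads on the structural RNA genes RN7SL1 and RN7SL2, against 11.1% to 15.0% in the other 7, and its part in the results was not tested beyond leaving it out. Of 16 breast epithelial markers, 14 were measured. Their summed level was 19518 to 22048 CPM in MCF10A and 11860 to 13604 CPM in DCIS.COM, and the most abundant genes weigh most in such a sum. With empty vector, 6 of the 14 were called higher in MCF10A by limma (adjusted p under 0.05, fold of at least 1.5). Another 6 were called higher in DCIS.COM, where 23.8% and 22.5% of all genes were so called. The median difference of the 14 was 0.071 on the log2 scale, with a range from -2.35 to 6.95. Among markers of other cells, 1 of 7 fibroblast genes (FAP, 80.2 to 103.5 CPM in MCF10A and 0.637 to 1.41 in DCIS.COM), 2 of 8 immune genes (CD14 and CD68, summing to 41.5 to 47.3 and 5.78 to 6.70) and 1 of 5 endothelial genes (PECAM1, 1.77 to 2.77 and 10.2 to 13.4) were measured, the others were not in the table, and their part in the line differences was not tested. Fewer cells with a transcript and less transcript per cell cannot be told apart in such bulk RNA.

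The 4 genes have different tasks in epithelial cells. CLCA2 encodes a membrane protein of a family that modulates calcium-activated chloride currents, and it is a target of p53 that is often lost in breast cancer. PDZK1IP1 encodes a small membrane protein, also called MAP17, that binds the scaffold PDZK1 and stimulates sodium-glucose transport. GLUL encodes glutamine synthetase, which makes glutamine from glutamate and ammonia, and TCN1 encodes haptocorrin, a secreted carrier of vitamin B12 (cobalamin) made by glandular epithelia and granulocytes.

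In the genome build GRCh37 (hg19), CLCA2 lies on the plus strand of chromosome 1 from 86889854 to 86922236, and its main transcript has 14 exons. PDZK1IP1 lies on the minus strand of chromosome 1 from 47649254 to 47656716, with 4 exons, and GLUL on the minus strand of chromosome 1 from 182347233 to 182361341, with 7 exons. TCN1 lies on the minus strand of chromosome 11 from 59620273 to 59633962, with 9 exons. No annotated gene overlapped any of them. The annotation names 4 pseudogenes of GLUL, none of them in the table, and how reads shared with such copies were assigned is not given in the sources used here, so the level of GLUL is uncertain to that extent.

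The 250 bases before the transcription start of each gene are shown because the 4 genes rose together in DCIS.COM and their upstream sequences can be compared. The starts and sequences are from RefSeq on GRCh38.p14, written 5′ to 3′ on the strand of the gene. The gene positions above are from GENCODE, and its starts were not compared with those of RefSeq. They cover chr1:86423921-86424170 on the plus strand for CLCA2, chr1:47190037-47190286 on the minus strand for PDZK1IP1, chr1:182391791-182392040 on the minus strand for GLUL, for which the upstream one of 2 annotated starts is shown, and chr11:59866488-59866737 on the minus strand for TCN1. Capitals mark matches to the motifs searched.
CLCA2: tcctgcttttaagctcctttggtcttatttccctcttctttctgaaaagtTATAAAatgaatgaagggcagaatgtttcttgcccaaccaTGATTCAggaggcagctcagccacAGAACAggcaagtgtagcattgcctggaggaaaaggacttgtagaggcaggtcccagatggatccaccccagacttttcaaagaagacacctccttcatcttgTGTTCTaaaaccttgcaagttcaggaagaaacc
PDZK1IP1: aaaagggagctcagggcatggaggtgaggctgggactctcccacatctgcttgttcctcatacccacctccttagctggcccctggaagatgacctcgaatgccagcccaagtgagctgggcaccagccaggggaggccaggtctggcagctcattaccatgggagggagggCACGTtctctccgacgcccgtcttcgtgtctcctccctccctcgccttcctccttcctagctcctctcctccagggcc
GLUL: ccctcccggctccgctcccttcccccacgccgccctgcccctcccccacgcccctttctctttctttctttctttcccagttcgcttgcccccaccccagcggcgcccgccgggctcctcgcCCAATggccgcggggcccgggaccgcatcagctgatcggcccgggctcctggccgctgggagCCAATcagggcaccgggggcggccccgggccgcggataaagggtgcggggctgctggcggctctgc
TCN1: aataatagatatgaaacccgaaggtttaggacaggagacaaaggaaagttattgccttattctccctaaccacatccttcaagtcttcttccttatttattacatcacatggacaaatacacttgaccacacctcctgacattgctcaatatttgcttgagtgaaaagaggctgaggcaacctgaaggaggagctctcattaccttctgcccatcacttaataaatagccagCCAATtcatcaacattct

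The upstream regions differed in base composition. GC content was 74.8% with 25 CpG sites for GLUL, 62.4% with 7 for PDZK1IP1, 44.8% with 0 for CLCA2 and 40.0% with 1 for TCN1, against a median of 58.0% over 35116 regions of the same length. The motifs searched on both strands were the TATA box (TATAAA), the CCAAT box (CCAAT), the AP-1 site (TGANTCA), the half-site of the glucocorticoid receptor (AGAACA), the core of the hypoxia response element (ACGTG), the cAMP response element (TGACGTCA) and the half-site consensus of p53. CLCA2 held TATAAA 200 bases before the start, a motif in 10.7% of all regions, TGATTCA at 160 bases, a form of the AP-1 site that is in 6.57%, and AGAACA at 136 and, on the other strand, at 33 bases, which is in 12.4%. PDZK1IP1 held ACGTG once, on the other strand at 78 bases (18.5% of all regions), GLUL held CCAAT at 128 and 66 bases, and TCN1 held CCAAT at 18 bases (32.0%). TGACGTCA, which is in 1.65% of regions, and the p53 half-site, which is in 5.57%, had no match in the 4 windows, and no motif was shared by all 4. A match is a description of letters and not of binding.

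CLCA2 was the gene with the largest rise with HOTAIR in DCIS.COM among the 4. Its level was 2.62 and 2.79 log2 CPM in the 2 DCIS.COM pCDH-empty libraries, from 183 reads in each, and 3.86 and 3.94 log2 CPM in the DCIS.COM pCDH-HOTAIR libraries, from 512 and 513 reads. In MCF10A it was 5.87 and 5.78 with empty vector and 6.23 and 6.25 with HOTAIR. The 4 groups did not overlap, and the order from low to high was DCIS.COM pCDH-empty, DCIS.COM pCDH-HOTAIR, MCF10A pCDH-empty and MCF10A pCDH-HOTAIR. The rise in DCIS.COM was 1.19 on the log2 scale (2.29-fold), the 35th largest of all 13771 differences. With empty vector, CLCA2 was 8.69-fold higher in MCF10A (3.12 on the log2 scale), and with HOTAIR in both lines it was 5.06-fold higher (2.34). DCIS.COM with HOTAIR thus still held 3.80-fold less CLCA2 RNA than MCF10A with empty vector.

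PDZK1IP1 had the widest gap between the lines. Its level was 7.23 and 7.24 log2 CPM in MCF10A pCDH-empty and 7.21 and 7.29 in MCF10A pCDH-HOTAIR. In DCIS.COM it was 1.62 and 1.56 with empty vector, from 90 and 77 reads, and 2.44 in both libraries with HOTAIR, from 190 and 180 reads. The MCF10A groups overlapped, while the DCIS.COM groups did not overlap each other or those of MCF10A. The rise with HOTAIR in DCIS.COM was 0.85 on the log2 scale (1.81-fold). MCF10A was 50.1-fold higher than DCIS.COM with empty vector (5.65 on the log2 scale) and 28.0-fold higher with HOTAIR (4.81). PDZK1IP1 was the only one of the 4 genes with fewer than 100 reads in any library, and its values in DCIS.COM carry the largest counting error.

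GLUL was the gene with the most reads, from 2971 to 17152 per library. Its level was 9.10 and 9.06 log2 CPM in MCF10A pCDH-empty and 8.74 and 8.58 in MCF10A pCDH-HOTAIR, against 6.83 and 6.79 in DCIS.COM pCDH-empty and 7.43 in both DCIS.COM pCDH-HOTAIR libraries. No groups overlapped, and the 2 lines lay closer together with HOTAIR than with empty vector. The rise in DCIS.COM was 0.62 on the log2 scale (1.54-fold), which is the smallest of the 4 and close to the 1.5-fold limit used for a call. MCF10A was 4.82-fold higher with empty vector (2.27 on the log2 scale) and 2.35-fold higher with HOTAIR (1.23).

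TCN1 had the reverse order of lines. Its level was 6.51 and 6.42 log2 CPM in MCF10A pCDH-empty, 6.22 and 6.26 in MCF10A pCDH-HOTAIR, 7.31 and 7.44 in DCIS.COM pCDH-empty, and 8.16 and 8.14 in DCIS.COM pCDH-HOTAIR. The 4 groups did not overlap, and both DCIS.COM groups were above both MCF10A groups. The rise with HOTAIR in DCIS.COM was 0.77 on the log2 scale (1.71-fold). TCN1 was 1.88-fold higher in DCIS.COM with empty vector and 3.76-fold higher with HOTAIR, so that the lines lay further apart with HOTAIR.

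**Figure D1:**
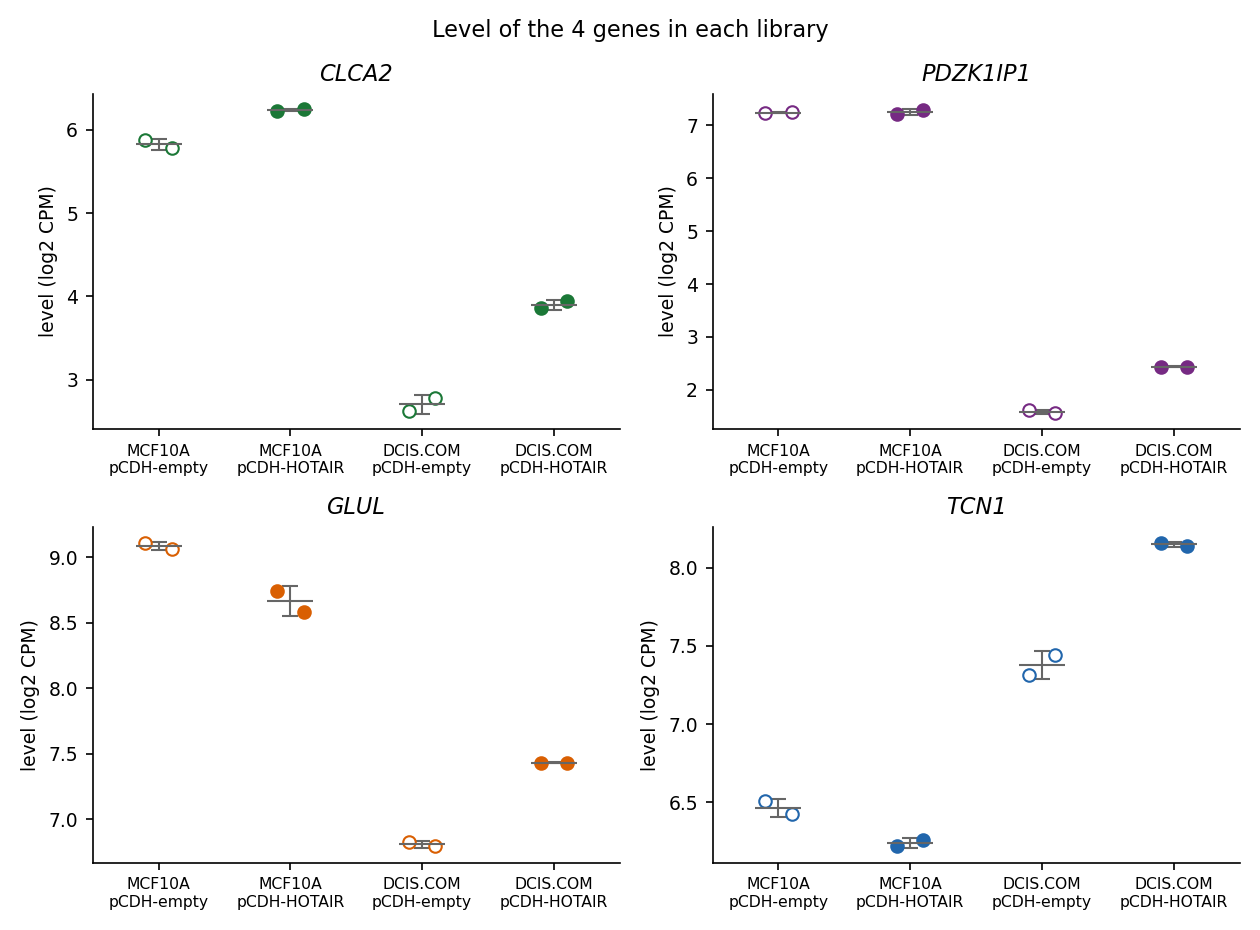
Level of each gene in log2 CPM (y axis, own scale in each panel) in the 2 libraries of each group (x axis), with open points for empty vector, filled points for HOTAIR, and grey bars for the group mean ± SD. CLCA2, PDZK1IP1 and GLUL sit higher in MCF10A and TCN1 higher in DCIS.COM, and in DCIS.COM the HOTAIR points lie above the empty-vector points for each gene.

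All 4 genes were higher in both HOTAIR libraries of DCIS.COM than in both empty-vector libraries, as their choice fixed, where 24.7% of all genes were so placed. The 4 genes were also among the 12 genes called higher with HOTAIR in DCIS.COM, which were 0.0871% of the genes, and nothing is read from these counts. The number called was 1 without either DCIS.COM pCDH-HOTAIR library, 5 without any 1 of the MCF10A libraries, 60 without DCIS.COM pCDH-empty 1, 1403 without DCIS.COM pCDH-empty 2 (both directions) and 0 when each line was fitted alone. A gene was called where limma gave an adjusted p under 0.05 and the fold was at least 1.5. Without the library DCIS.COM pCDH-empty 1, the rise in DCIS.COM was 1.11 on the log2 scale for CLCA2, 0.88 for PDZK1IP1, 0.64 for GLUL and 0.71 for TCN1. With empty vector, CLCA2, PDZK1IP1 and GLUL were higher in MCF10A in both libraries, a placement that 40.9% of all genes had. The line difference and the DCIS.COM difference share the DCIS.COM pCDH-empty libraries, so their values are given side by side and are not independent of each other.

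Levels of different genes were compared per kb of the main transcript. In MCF10A with empty vector, PDZK1IP1 had 179.6 CPM per kb, GLUL 71.7, TCN1 59.4 and CLCA2 14.4. In DCIS.COM with empty vector the order was different, with TCN1 at 112.0 CPM per kb, GLUL at 14.9, PDZK1IP1 at 3.59 and CLCA2 at 1.66. The order was the same in DCIS.COM with HOTAIR, where TCN1 had 191.2 CPM per kb, GLUL 22.9, PDZK1IP1 6.48 and CLCA2 3.79. The haptocorrin gene was thus the most abundant of the 4 transcripts per length in DCIS.COM, and the PDZK1IP1 transcript was so in MCF10A. The order in MCF10A rests on main transcripts of 7.55 kb for GLUL and 0.838 kb for PDZK1IP1, and other lengths were not tried.

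The difference with HOTAIR in MCF10A was not part of the choice, although its empty-vector libraries also entered the difference between the lines. Its test shares the estimate of the spread with the DCIS.COM difference, in which all 4 genes were called. None of the 4 was called by limma, where 0.0218% of all genes were called. An unadjusted p under 0.05 by limma and by limma-voom was found for 3 of the 4, where 7.28% of all genes had one by limma. The share of all genes by limma-voom is not given here. Genes called in DCIS.COM tend to have a small estimate of the shared spread, so nothing is read from the 3 of 4. CLCA2 was 33.3% higher with HOTAIR, by 0.41 on the log2 scale (SE 0.087, 95% interval 0.21 to 0.62), with an adjusted p of 0.249 in limma. GLUL was 25.2% lower, at -0.42 (SE 0.069, interval -0.58 to -0.26), with an adjusted p of 0.155. TCN1 was 14.4% lower, at -0.22 (SE 0.068, interval -0.38 to -0.067), with an adjusted p of 0.471. The groups of these 3 genes did not overlap, which was so for 47.2% of all genes. PDZK1IP1 differed by 0.015 (SE 0.075, interval -0.16 to 0.19), with an adjusted p of 0.998 in limma, and a fold interval of 0.896 to 1.14.

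The adjusted p of these 3 genes depended on which libraries were in the fit, also those of DCIS.COM, because the 4 groups share one estimate of the spread in limma. Without DCIS.COM pCDH-empty 1, the adjusted p was 0.0174 for CLCA2, 0.0113 for GLUL and 0.0396 for TCN1, and without DCIS.COM pCDH-empty 2 it was 0.0179, 0.0112 and 0.0398. Without DCIS.COM pCDH-HOTAIR 1 it was 0.567, 0.470 and 0.853, and over all fits that left out 1 library, those of MCF10A included, it ran from 0.0174 to 0.825 for CLCA2, from 0.0112 to 0.671 for GLUL and from 0.0396 to 1 for TCN1. The folds stayed under 1.5 without either DCIS.COM pCDH-empty library, so that none of the 3 was called. When each line was fitted alone, the adjusted p in limma was 0.196 for CLCA2, 0.196 for GLUL, 0.225 for TCN1 and 0.887 for PDZK1IP1.

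**Figure D2:**
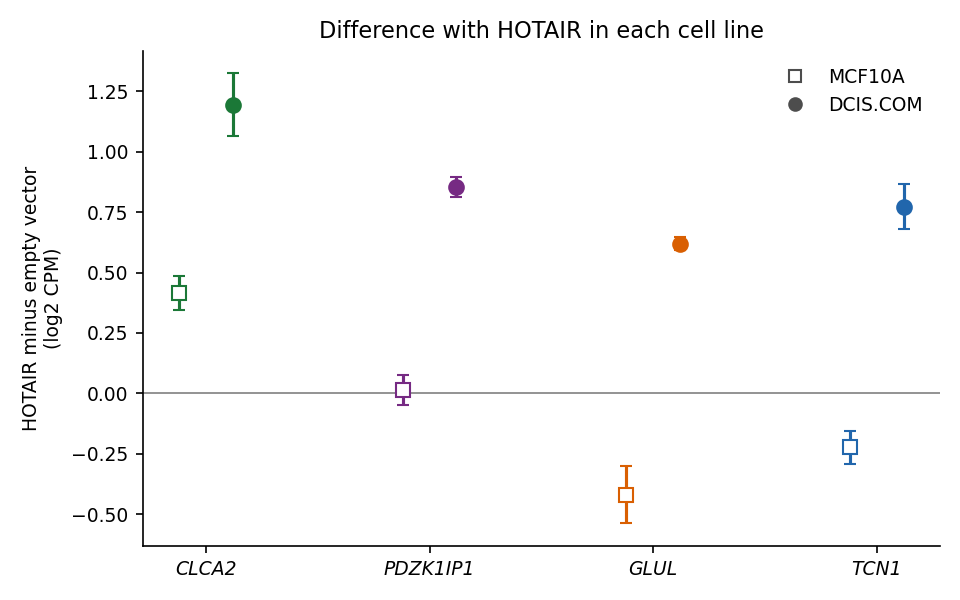
Difference of HOTAIR minus empty vector in log2 CPM (y axis) for each gene (x axis) in MCF10A (open squares) and DCIS.COM (filled circles), with bars for the SD of the difference from 2 libraries a group. In DCIS.COM the values run from 0.62 to 1.19, and in MCF10A from -0.42 for GLUL to 0.41 for CLCA2, with PDZK1IP1 near 0.

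The other 8 genes called higher with HOTAIR in DCIS.COM included HOTAIR itself, which rose by 5.41 on the log2 scale. The acute-phase gene SAA2 rose by 1.31, the antiviral gene TRIM22 by 1.22, the anticoagulant cofactor gene PROS1 by 1.10, and the hemidesmosome collagen gene COL17A1 by 0.94. IGFBP6, MMP14 and NDRG1 rose by 0.64, 0.63 and 0.61. Like those of the 4 genes, these calls rest on the spread estimate, and 1 gene was called without either DCIS.COM pCDH-HOTAIR library. CLCA2 stood between TRIM22 and PROS1 in this order, PDZK1IP1 and TCN1 came after COL17A1, and GLUL stood between MMP14 and NDRG1. In MCF10A over DCIS.COM with empty vector, where the same DCIS.COM libraries are the reference, the log2 difference was 6.44 for SAA2, 4.86 for TRIM22, 4.50 for PROS1, 4.92 for COL17A1, 4.34 for IGFBP6, 1.79 for MMP14, 2.17 for NDRG1 and -1.58 for HOTAIR. PDZK1IP1 (5.65) was within the range of the first 5 of these, and TCN1 (-0.91) had a lower level in MCF10A, as HOTAIR had.

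The genes with the profiles nearest to each of the 4 were found by the root mean square difference of log2 CPM over the 8 libraries, after centring each gene on its own mean. CLCA2 was nearest to PHYHIP (0.154) and ZNF487 (0.172), both with 4 reads or fewer in some library. The chemokine gene CXCL8 (0.265), the AP-1 gene FOS (0.268) and the cornified envelope gene FLG (0.270) followed. FLG had 6 reads in its lowest library, and the median over all genes was 1.46. PDZK1IP1 was nearest to MMP28 (0.0953), COL4A4 (0.138) and NOD2 (0.212), the last with 4 reads in its lowest library. KLK8 (0.223) and SAA4 (0.224) came next and had 0 reads in some library, and the median was 2.64. Among the nearest to GLUL were the interferon-induced gene IFIT3 (0.0628), the proton pump gene ATP6V1B1 (0.121), SH3RF2 (0.135) and the death receptor gene FAS (0.143), with a median of 0.958. TCN1 was nearest to the pseudogene CMAHP (0.149), LPCAT2 (0.157), IL1RAP (0.159), SYT8 (0.161) and LEMD1 (0.168), with a median of 0.807. Among the 4 genes themselves, CLCA2 and GLUL were the nearest pair, at 0.611, and PDZK1IP1 and TCN1 the farthest, at 3.32.

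**Figure D3:**
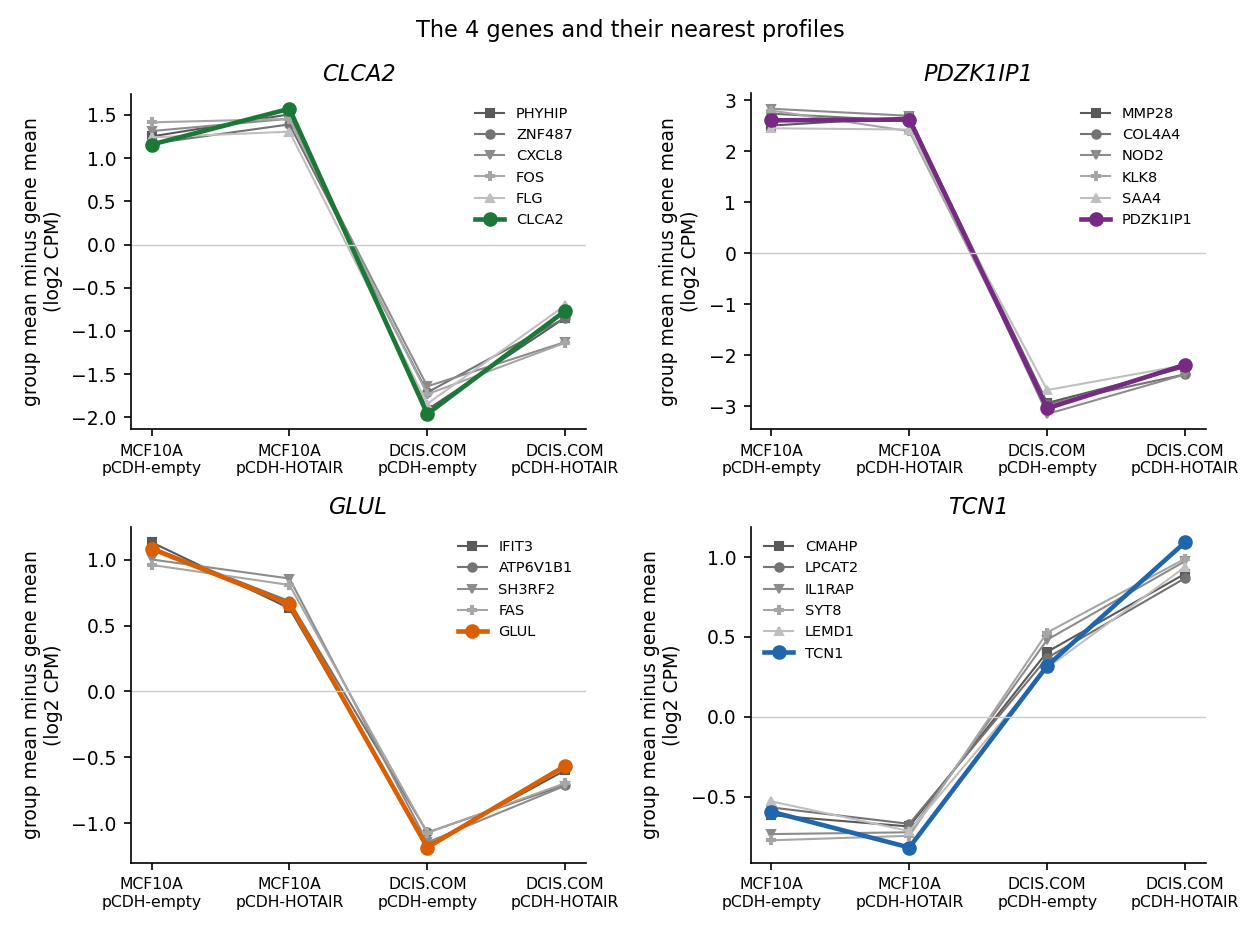
Group means of each gene (thick coloured line) and of 4 or 5 of its nearest genes (grey lines) in log2 CPM, each minus the gene's own mean (y axis), over the 4 groups (x axis). The profiles of CLCA2, PDZK1IP1 and GLUL drop from MCF10A to DCIS.COM, and that of TCN1 goes up from MCF10A to DCIS.COM.

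The genes around each of the 4 were looked at for a shared change along the chromosome. Within 500 kb, 18 other genes of the table were found, 4 near CLCA2, 6 near PDZK1IP1, 4 near GLUL and 4 near TCN1. None was called by limma with HOTAIR in DCIS.COM, and 3 had an unadjusted p under 0.05, beside 17.5% of all genes. Differences ran from -0.27 to 0.52 on the log2 scale. By locus, they ran from 0.27 to 0.46 near CLCA2 and from -0.27 to -0.048 near TCN1. They ran from -0.092 to 0.52 near PDZK1IP1 and from -0.24 to 0.11 near GLUL. The 4 near CLCA2 were all above the median of all genes, 0.010, and in MCF10A ran from -0.12 to -0.0018. A cause for this was not tested. Between the lines, 3 of the 4 neighbours of CLCA2 and 4 of the 6 of PDZK1IP1 were called higher in MCF10A, beside 23.8% of all genes. Among them were the cytochrome genes CYP4X1 (5.99 on the log2 scale) and CYP4B1 (4.18) beside PDZK1IP1. Another 1 of the 6 beside PDZK1IP1 was called higher in DCIS.COM (-1.62). For GLUL and TCN1, 2 of 4 neighbours each were called higher in DCIS.COM, beside 22.5% of all genes, and none in MCF10A.

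Lists of genes that share a pathway or product with the 4 were compared between the lines with empty vector by limma, in which 23.8% of all genes were called higher in MCF10A and 22.5% higher in DCIS.COM. The median difference over all genes was 0.00012 on the log2 scale. Of 17 CLCA and calcium-activated chloride channel genes other than CLCA2, 7 were measured, and CLCA1 and CLCA4 were not in the table. Higher in MCF10A were 5, with a list median of 0.92, among them ANO4 (4.55 on the log2 scale, adjusted p = 1.39e-06 in limma), the bestrophin gene BEST1 (3.03) and the scramblase gene ANO6 (1.19). The chloride channel gene ANO1 went the other way, with 4 and 5 reads in MCF10A pCDH-empty and 1768 to 2498 in DCIS.COM pCDH-empty, a difference of -8.35 (adjusted p = 9.44e-08). CLCA2 and ANO1 thus had opposite orders of the 2 lines.

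Beside TCN1, 15 of 19 genes of cobalamin uptake and use were measured. With empty vector, 2 were called higher in MCF10A and 3 higher in DCIS.COM, with a median of -0.0028. TCN2, which encodes the carrier that delivers cobalamin from the blood to cells, was 17.7-fold higher in MCF10A (4.14 on the log2 scale, adjusted p = 9.31e-08 in limma), the reverse of the order of TCN1. CD320, which encodes the receptor for that carrier, was 2.12-fold higher in DCIS.COM, and the lysosomal cobalamin exporter gene LMBRD1 was 3.31-fold higher in MCF10A.

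Beside GLUL, 35 of 38 glutamine and glutamate genes were measured, and 4 were called higher in MCF10A and 15 higher in DCIS.COM, with a median of -0.11. The number higher in MCF10A was 7 without DCIS.COM pCDH-empty 1. The glutamate transporter gene SLC1A1 (-2.96 on the log2 scale), the glutamate decarboxylase gene GAD1 (-2.87) and the glutaminase gene GLS2 (-2.17) were higher in DCIS.COM, as was the asparagine synthetase gene ASNS, which uses glutamine (-1.91). The glutamine transporter gene SLC38A2 (2.12) and the glutamate dehydrogenase gene GLUD1 (0.97) were higher in MCF10A, as GLUL was.

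Of 14 genes for partners of PDZK1IP1 and PDZ scaffolds, 6 were measured, and PDZK1 was not in the table. The sodium-glucose transporter gene SLC5A1 had 1 read in each MCF10A pCDH-empty library and 836 and 952 reads in DCIS.COM pCDH-empty (adjusted p = 8.86e-06 in limma), which is the reverse of PDZK1IP1. The scaffold genes SLC9A3R2 (0.92 on the log2 scale) and SLC9A3R1 (-0.74) were higher in MCF10A and in DCIS.COM, respectively.

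Of 33 secretory and mucosal epithelial genes, 24 were measured, and 12 were called higher in MCF10A and 7 higher in DCIS.COM, with a median of 0.57. S100A8, a gene of calprotectin, had 3768 to 4974 reads in MCF10A pCDH-empty and 3 to 9 in DCIS.COM pCDH-empty, and the mammaglobin gene SCGB2A2 had 0 in both MCF10A pCDH-empty libraries and 252 to 291 in DCIS.COM pCDH-empty. TCN1 was on the side of SCGB2A2, and the other 3 genes were on the side of S100A8. With HOTAIR in DCIS.COM, 1 of the 24 was called, SAA2, where 0.0871% of all genes were called higher, and 13 of the 24 had an unadjusted p under 0.05, where 17.5% of all genes had one. The count of calls was 7 without DCIS.COM pCDH-empty 2, 2 without DCIS.COM pCDH-empty 1 and 0 without either pCDH-HOTAIR library.

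Because hydrocortisone was in the MCF10A medium, 25 glucocorticoid-responsive genes were also listed. Of the 20 measured, 14 were called higher in MCF10A and 3 higher in DCIS.COM, with a median of 1.91 on the log2 scale. The metallothionein gene MT1X was 6.83 higher and the receptor co-chaperone gene FKBP5 4.21 higher in MCF10A (both with an adjusted p of 6.02e-09 in limma), and ZBTB16 had 358 to 428 reads in MCF10A pCDH-empty and 0 in both DCIS.COM pCDH-empty libraries. PDK4 was higher in DCIS.COM, by a difference of -3.44. The median of this list, and that of the secretory list, was the same with groups at 0 reads set to 3 reads per library. CLCA2, PDZK1IP1 and GLUL had the order of MT1X and FKBP5, and the part of the medium in their levels was not tested. The gene of the glucocorticoid receptor, NR3C1, was 1.27-fold higher in MCF10A (0.35 on the log2 scale, adjusted p = 0.0026 in limma). It was not called, because the fold was under 1.5.

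Of 9 genes for known regulators of the 4, 8 were measured, and 3 were called higher in MCF10A and 3 in DCIS.COM, with a median of 0.093. FOXO1, a regulator of GLUL, was 16.4-fold higher in MCF10A, and the Wnt effector gene TCF7L2 was 3.51-fold higher in DCIS.COM. CTNNB1 was 2.51-fold higher in DCIS.COM and MYC 1.83-fold higher in MCF10A. TP63 was 1.68-fold higher in DCIS.COM. With HOTAIR, none of the 8 was called in either line.

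With HOTAIR in MCF10A, none of the genes of these 7 lists was called by limma, and in DCIS.COM SAA2 was the only one. The number with an unadjusted p under 0.05 in MCF10A was 0 of 7 for the chloride channel list, 1 of 15 for cobalamin, 2 of 35 for glutamine and glutamate, 1 of 6 for PDZ partners, 1 of 24 for secretory genes, 6 of 20 for glucocorticoid-responsive genes and 1 of 8 for regulators, beside 7.28% of all genes. In DCIS.COM it was 0, 3, 8, 2, 13, 10 and 3 in the same order, beside 17.5% of all genes. These counts take both directions together. The medians of the lists ran from -0.14 to 0.23 on the log2 scale in DCIS.COM, where the 4 genes had 0.62 to 1.19.

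**Figure D4:**
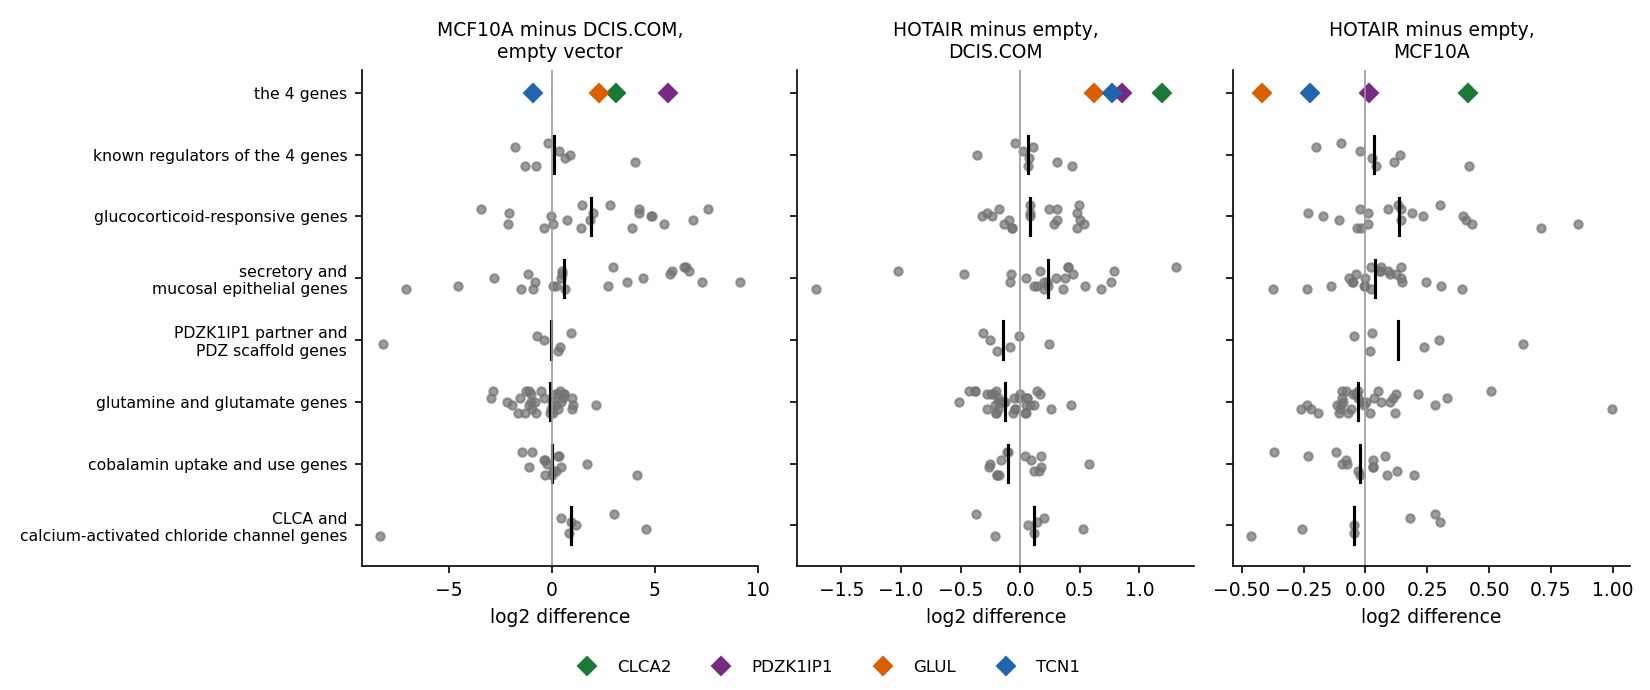
Log2 difference (x axis, own scale in each panel) of each gene of the 7 lists (grey points, 1 row a list, black bar at the list median) and of the 4 genes (coloured diamonds, top row) between lines with empty vector (left), with HOTAIR in DCIS.COM (middle) and with HOTAIR in MCF10A (right). The list medians in the middle panel lie between -0.14 and 0.23, left of the 4 genes, which were chosen for a rise there.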

How the data were processed

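RNA-seq libraries (ScriptSeq, paired ends) were made from MCF10A and DCIS.COM cells carrying pCDH-HOTAIR or pCDH-empty, with 2 libraries for each group as labelled. The authors aligned reads to hg19 with Rsubread, counted known genes with featureCounts, normalized with edgeR and deposited log2 CPM values for 13771 genes, each above 0.5 CPM in at least 2 libraries. Tool versions, the prior count and the strand setting are not given in the sources used here. Of these genes, 343 had no symbol. Whole reads were recovered from the steps of the CPM values, and 100% of values were whole within 0.05 reads. They are given as depth and used in the limma-voom alternative.

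All genes were fitted together in R 4.3.3 by limma 3.58.1, with the 4 groups as coefficients, a trended eBayes prior and Benjamini-Hochberg adjustment over 13771 genes. A call needed an adjusted p under 0.05 and a fold of at least 1.5. The fit was tested on simulated data. An exact permutation test of 2 against 2 libraries cannot go below a two-sided p of 0.333 and was not used. Alternatives were median centring, quantile normalization, log2(CPM + 1), a mean CPM filter of 2, a GC correction, no trend, separate fits, a replicate block, limma-voom, a log2 fold change of 1.5, no fold limit and leaving out each library.

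The genes and the lists were chosen with earlier results of these data known. Named genes were the 4 chosen ones, up to 4 called genes with the largest difference per list, the other genes called higher with HOTAIR in DCIS.COM, and the 5 nearest profiles of each. Not every gene so selected is reported here, and ASNS, GLUD1, FKBP5, PDK4, NR3C1, TP63, CYP4X1 and CYP4B1 were named after their values were seen. Transcript lengths are of the MANE Select transcript, and positions are from GENCODE on GRCh37. Same-numbered libraries of the groups had correlated deviations between -0.016 and 0.066, so the numbers were not taken to pair the samples.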

Additional observations from a re-analysis of the deposited data

Results flagged for a closer look

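For GLUL and TCN1, the HOTAIR libraries lay on opposite sides of the controls in the 2 lines. Both HOTAIR libraries were above both controls in DCIS.COM, for which the genes were chosen, and below both in MCF10A. There, 47.2% of all genes had groups that did not overlap, counting both directions. Neither gene passed the test in MCF10A (adjusted p = 0.155 for GLUL and 0.471 for TCN1 in limma). The HOTAIR difference in DCIS.COM minus that in MCF10A was 1.04 on the log2 scale for GLUL and 0.997 for TCN1. These differences between the lines were not tested, because the DCIS.COM values had been used to choose the genes.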

How the results depend on the processing

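Of 136 alternative values for the 4 genes, 119 kept their direction and their side of the threshold or moved by less than the SD between replicates. The side of the threshold was looked at only in MCF10A, because the other differences were not tested. In MCF10A, no trend, separate fits, the replicate block and leaving out a DCIS.COM library cannot change the log2 difference. Only the adjusted p can change there, so the 119 include values that could not move. The value of PDZK1IP1 with HOTAIR in MCF10A changed sign, to -0.018 with the GC correction and to -0.028 without MCF10A pCDH-HOTAIR 2, and ran from -0.028 to 0.057 over the fits that left out a library. Over the same fits, CLCA2 ran from 0.37 to 0.46, GLUL from -0.50 to -0.34 and TCN1 from -0.27 to -0.18. Between the lines with empty vector, CLCA2 moved to 2.94 with log2(CPM + 1) and 2.95 with the GC correction, GLUL to 2.23 with median centring and 2.34 with the GC correction, and PDZK1IP1 to 5.60, 5.24 and 5.72 with median centring, log2(CPM + 1) and the GC correction. The rise of PDZK1IP1 in DCIS.COM moved to 0.68 with log2(CPM + 1) and 0.92 with the GC correction. The causes of these moves were not tested.

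In MCF10A, 3 genes were called with HOTAIR (3 higher). The count was 7 with log2(CPM + 1), 5 with limma-voom, 16 with the GC correction (12 higher, 4 lower), 1 with separate fits or a log2 fold change of 1.5, and 1 to 51 when a library was left out. The 51 were reached without DCIS.COM pCDH-empty 1 or 2 (40 higher, 11 lower). In DCIS.COM, 12 genes were called higher. The count was 52 with the GC correction (46 higher, 6 lower), 6 with no trend, 0 with separate fits in limma (1203 genes at an unadjusted p under 0.05), 1 with a log2 fold change of 1.5, and 1 to 1403 when a library was left out, with 60 without DCIS.COM pCDH-empty 1 (51 higher, 9 lower) and 1403 without DCIS.COM pCDH-empty 2 (1115 higher, 288 lower). Between the lines, 2418 genes passed a log2 fold change of 1.5. With a replicate block the counts were 2 in MCF10A, 20 in DCIS.COM and 6378 between the lines, and the adjusted p of the 4 genes in MCF10A was 0.247 to 0.998. The numbers are not shown to pair the samples. Of 240 counts for the lists, an alternative added after seeing the data, 232 stayed within 1.5 times. With 2 libraries a group the intervals are wide, and the 77 to 190 reads of PDZK1IP1 in DCIS.COM limit its precision.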
